A study of Mus musculus with 7 samples.

Results

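The ligands, activating integrins, receptors and Smads of the transforming growth factor-β (TGF-β) pathway were read here as 10 genes (3 ligands, 3 integrin subunits, 2 receptors and 2 Smads), taken by symbol from the 31907 distinct genes of the series. Keratinocyte clusters were read first for the ligands and integrins, and myeloid clusters for the receptors and Smads, but every listed member was measured in all clusters.

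TGF-β is made as a latent protein that binds its own propeptide, and it signals only after release. The ligands are encoded by Tgfb1, Tgfb2 and Tgfb3. The integrins αvβ8 and αvβ6, which share the αv subunit Itgav and carry the β subunits Itgb8 and Itgb6, release active TGF-β from the latent complex. Active ligand binds the type II receptor Tgfbr2, which recruits the type I receptor Tgfbr1, and Smad3 then carries the signal to the nucleus. Smad7 is induced by the pathway and inhibits the receptor complex. Langerhans cells (LC), the myeloid cells of the epidermis, need TGF-β to form and to stay in place.

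The series holds single-cell RNA of mouse epidermis 3 weeks after bone marrow transplantation (BMT), with all mice on the C57BL/6 background. Bone marrow of female CD45.1 donors was given to irradiated male CD45.2 hosts. Donor CD11b+MHCII+ myeloid cells formed 3 libraries labelled BMT (replicates 1 to 3) and 1 library labelled as BMT plus T cells, called BMT + T cells here. CD45- host keratinocytes formed 1 library under each label, written KC BMT and KC BMT + T cells, and host CD11b+MHCII+ cells formed 1 library labelled BMT. The design text gives T cells to the recipients without setting any library apart, so the 2 names are used here as labels only. Mice were pooled before sorting, so a library is not 1 animal. The spread between libraries is therefore the only replicate error, and it may be partly technical. The annotated clusters are the authors' own. They include monocyte-derived LC (mLC) that are resident, cycling or migrating, converting monocyte-derived cells (MC), Mrc1+ macrophages and several monocyte groups.

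Donor libraries held 11899 cells, keratinocyte libraries 5426 and the host library 781. All 10 members were listed for keratinocytes and host cells, and 9 for donor cells, where Itgb6 has no row. Library depth ran from 2982296 to 64343817 unique molecular identifiers (UMIs), with medians of 4376 to 13387 UMIs per cell. The shallowest donor library, BMT replicate 3, held 226 cells, and pairs of libraries shared between 0 and 7 cell barcodes. The cluster names were read against marker genes. Resident mLC carried Epcam at 18.7 to 26.0 UMIs per 10000 and migrating mLC carried Ccr7 at 8.69 to 9.13, against at most 0.185 in any other donor cluster. Follicular keratinocytes carried Krt79 at 23.8 to 26.4 UMIs per 10000, against at most 0.0438 elsewhere. The markers Mrc1 and Arg1 did not set Mrc1+ macrophages apart. Their sum was lower there than in Hmox1_Mono in each of 3 libraries (2.93 against 8.49, 20.6 against 51.0 and 6.86 against 24.4 in BMT replicates 1 and 2 and BMT + T cells), and in BMT + T cells it was also lower than in Mono (8.42). The name is thus used here only as the authors' annotation. Of the 537 follicular cells, however, only 192 held a Krt79 UMI, while 73 held a UMI of a fibroblast gene (Col1a1, Col1a2 or Dcn) and 22 a UMI of a melanocyte gene (Dct, Pmel or Mlana). Melanocyte UMIs were also found in 112 of 3396 basal, 25 of 846 differentiated, 23 of 375 KC_Four and 9 of 272 KC_Five cells. Fibroblast UMIs were found in 32, 2, 3 and 3 of those cells. Member results on the follicular cluster are also given for its 448 cells with neither, while the other clusters were kept whole. Single genes outside the members are given for the whole cluster only. Over 20% mitochondrial UMIs were found in 208 of 781 host cells, in 148 of 2572 cells of BMT replicate 1, in 6 to 17 cells of the other donor libraries and in 0 and 1 keratinocytes. Host clusters 5 and 7 carried basal keratins and cluster 6 carried Cd3e at 41.0 UMIs per 10000, which goes against the CD11b+MHCII+ label, so host clusters are named by number.

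Levels below are UMIs per 10000 UMIs of a cell, averaged over the cells of a library and cluster. A gene was called between clusters when its Benjamini-Hochberg adjusted p was under 0.05 and its difference exceeded 1 on the scale of log2(UMIs per 10000 + 0.1). This scale understates the change of low genes. The test was limma with library as a block, on genes with a mean of at least 0.1 UMIs per 10000. A gene near 0 in a cluster can pass this filter through other clusters where it is high. The size, SE and p of its difference then depend on the pseudocount. This holds below for Ccn2 in basal keratinocytes, Mmp9 in Mono and migrating mLC, Itgae in Mono and Mrc1+ macrophages, and Thbs1 in resident mLC. Of the members, 5 of 9 passed that filter in donor cells and 5 of 10 in keratinocytes (Tgfb1, Itgav, Tgfbr1, Tgfbr2 and Smad7 in both). The clusters were drawn from the same expression values, so a call describes the annotation and is not independent evidence for it. In several donor comparisons the median of all genes moved off 0, by 0.14, 0.12 and 0.13 for resident mLC against Mono, Mrc1+ macrophages and MC and by -0.26 for migrating against resident mLC. Member differences are to be read against those shifts. The first 3 comparisons share the resident mLC, and both keratinocyte comparisons share the basal cells.

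The promoters of 4 members are shown first. Tgfb1, Tgfbr1 and Itgav are shown because all 3 were lower together in resident mLC than in Mrc1+ macrophages, and Itgb8 because its RNA was nearly absent outside the follicular and migrating clusters. The sequences are from RefSeq on GRCm38.p6, the build named in the processing notes. They cover the 250 bases before the start used in its promoter table, written 5′ to 3′ on the strand of the gene. For Itgav that start and the window lie inside the annotated gene (chr2:83722303-83806917), not before it. Capitals mark the one motif found.
Tgfb1, chr7:25686752-25687001, plus strand: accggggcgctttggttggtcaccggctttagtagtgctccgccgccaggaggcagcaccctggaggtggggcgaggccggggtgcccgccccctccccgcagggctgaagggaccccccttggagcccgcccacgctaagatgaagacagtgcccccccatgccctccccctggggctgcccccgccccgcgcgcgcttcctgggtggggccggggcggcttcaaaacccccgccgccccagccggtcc
Tgfbr1, chr4:47352972-47353221, plus strand: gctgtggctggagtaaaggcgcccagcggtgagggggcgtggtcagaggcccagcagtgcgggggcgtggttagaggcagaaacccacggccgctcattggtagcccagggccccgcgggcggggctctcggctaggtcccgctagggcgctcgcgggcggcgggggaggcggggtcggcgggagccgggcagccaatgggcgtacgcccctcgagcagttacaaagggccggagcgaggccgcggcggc
Itgav, chr2:83724147-83724396, plus strand: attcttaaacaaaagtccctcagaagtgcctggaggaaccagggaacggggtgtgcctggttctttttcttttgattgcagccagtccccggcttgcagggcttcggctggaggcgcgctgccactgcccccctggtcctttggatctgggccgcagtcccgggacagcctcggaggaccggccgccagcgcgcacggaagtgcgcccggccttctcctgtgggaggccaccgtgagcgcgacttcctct
Itgb8, chr12:119238277-119238526, minus strand: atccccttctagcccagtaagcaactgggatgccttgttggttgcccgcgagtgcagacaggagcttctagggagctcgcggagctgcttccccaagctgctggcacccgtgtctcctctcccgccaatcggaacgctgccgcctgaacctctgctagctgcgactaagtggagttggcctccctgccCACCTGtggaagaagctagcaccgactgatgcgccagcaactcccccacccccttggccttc

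The windows were searched on both strands for the AP-1 motif TGANTCA, the palindromic Smad element GTCTAGAC and the ZEB E-box CAGGTG. The E-box occurred once, in the Itgb8 window, overlapping no other motif, with its first base at position -62 from the start. It occurs in 17.2% of 32851 mouse promoters of this length, AP-1 in 6.75% and the Smad element in 0.167%. G and C made up 75.2% of the Tgfb1 window, 74.8% of that of Tgfbr1, 64.4% of that of Itgav and 62.4% of that of Itgb8, against a median of 52.4% over all promoters. Of the 10 members, 8 had a promoter in the table. A match is a description of letters only. Of the members not shown, 5 lie on GRCm38.p6 at chr1:186622787-186709697 (Tgfb2), chr12:86056743-86079041 (Tgfb3), chr2:60598292-60722603 (Itgb6), chr9:116087695-116175363 (Tgfbr2) and chr9:63646766-63757994 (Smad3). All 10 members are annotated as protein-coding.

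In keratinocytes, Tgfb1, the ligand best known in LC biology, was highest in the cluster named KC_Four, with 0.641 (KC BMT) and 0.710 (KC BMT + T cells) UMIs per 10000. KC_Four and KC_Five were the clusters that carried cycling genes, summed to 14.5 to 19.0 UMIs per 10000 over 3 markers. Basal cells held 0.337 and 0.340 UMIs per 10000 of Tgfb1, follicular cells 0.244 and 0.369, and KC_Five 0.264 and 0.235. Differentiated cells held the least, at 0.0373 and 0.0597, below every other cluster in both libraries. The basal values lay within the follicular range, which also overlapped that of KC_Five. Tgfb1 fell by 1.57 (SE 0.14) on the log2 scale in differentiated against basal cells, in 2 of 2 libraries (limma adjusted p = 5.2e-08). It was the 1 of 5 tested members called in that comparison, where 5.74% of 7650 genes were called. With a pseudocount of 1 the difference was -0.35 and was no longer past the fold threshold. With voom on the summed UMIs it was -3.06.

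Tgfb2 and Tgfb3 were scarcer, with 453 and 40 UMIs over all 5426 keratinocytes, and both were under the filter on low values. Tgfb2, a ligand with roles in hair follicle formation, was highest in follicular cells, at 0.235 and 0.270 UMIs per 10000, then in basal cells at 0.0876 and 0.116. Differentiated cells held 0.0105 and 0.0260. Follicular and basal ranges did not overlap. Tgfb3 was found almost wholly in follicular cells, with 22 and 12 UMIs there, 4 and 1 in basal cells, 1 in KC_Four and 0 in differentiated and KC_Five cells. A count of 0 in differentiated cells allows up to 0.566 UMIs per 1000000 UMIs summed over the cells (CPM) in KC BMT and 0.798 in KC BMT + T cells. In a fit without the filter, the follicular minus basal difference was 0.80 (SE 0.16, limma adjusted p = 0.031) for Tgfb2. For Tgfb3 it was 0.77 (SE 0.06, limma adjusted p = 8.8e-04). Both were under the fold threshold on this scale. Tgfb3 was at or near 0 outside follicular cells, so its SE follows the pseudocount more than the spread between libraries.

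The Tgfb2 difference moved with fibroblast and melanocyte RNA in the cluster. The 89 follicular cells with a fibroblast or melanocyte UMI held 29 of its 82 follicular Tgfb2 UMIs, or 38.3 CPM (95% exact Poisson interval 25.6 to 54.9). The 178 cells with a Krt79 UMI and neither marker held 6.97 CPM (3.60 to 12.2), and the remaining 270 cells held 17.7 (12.7 to 24.1). Ratios to basal cells used all 3396 of them, of which 143 held a fibroblast or melanocyte UMI. Over the 448 follicular cells without such UMIs, the Tgfb2 ratio was 1.28 (counting interval 0.94 to 1.72), against 1.67 (1.29 to 2.14) for the whole cluster. For Tgfb3 the ratio was 40.2 (15.3 to 134) without those cells and 42.6 (16.6 to 140) with them. Without those cells it was 0.79 (0.64 to 0.96) for Tgfb1, 0.83 (0.68 to 1.01) for Itgav and 0.66 (0.32 to 1.22) for Itgb6. For the receptors it was 0.72 (0.52 to 0.98) for Tgfbr1 and 0.83 (0.69 to 0.99) for Tgfbr2. For the Smads it was 0.37 (0.21 to 0.60) for Smad3 and 2.35 (1.99 to 2.76) for Smad7. The part of fibroblasts or melanocytes in these values was not tested. Intervals on counts cover counting error only, since cells of 1 library share their source.

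**Figure D1:**
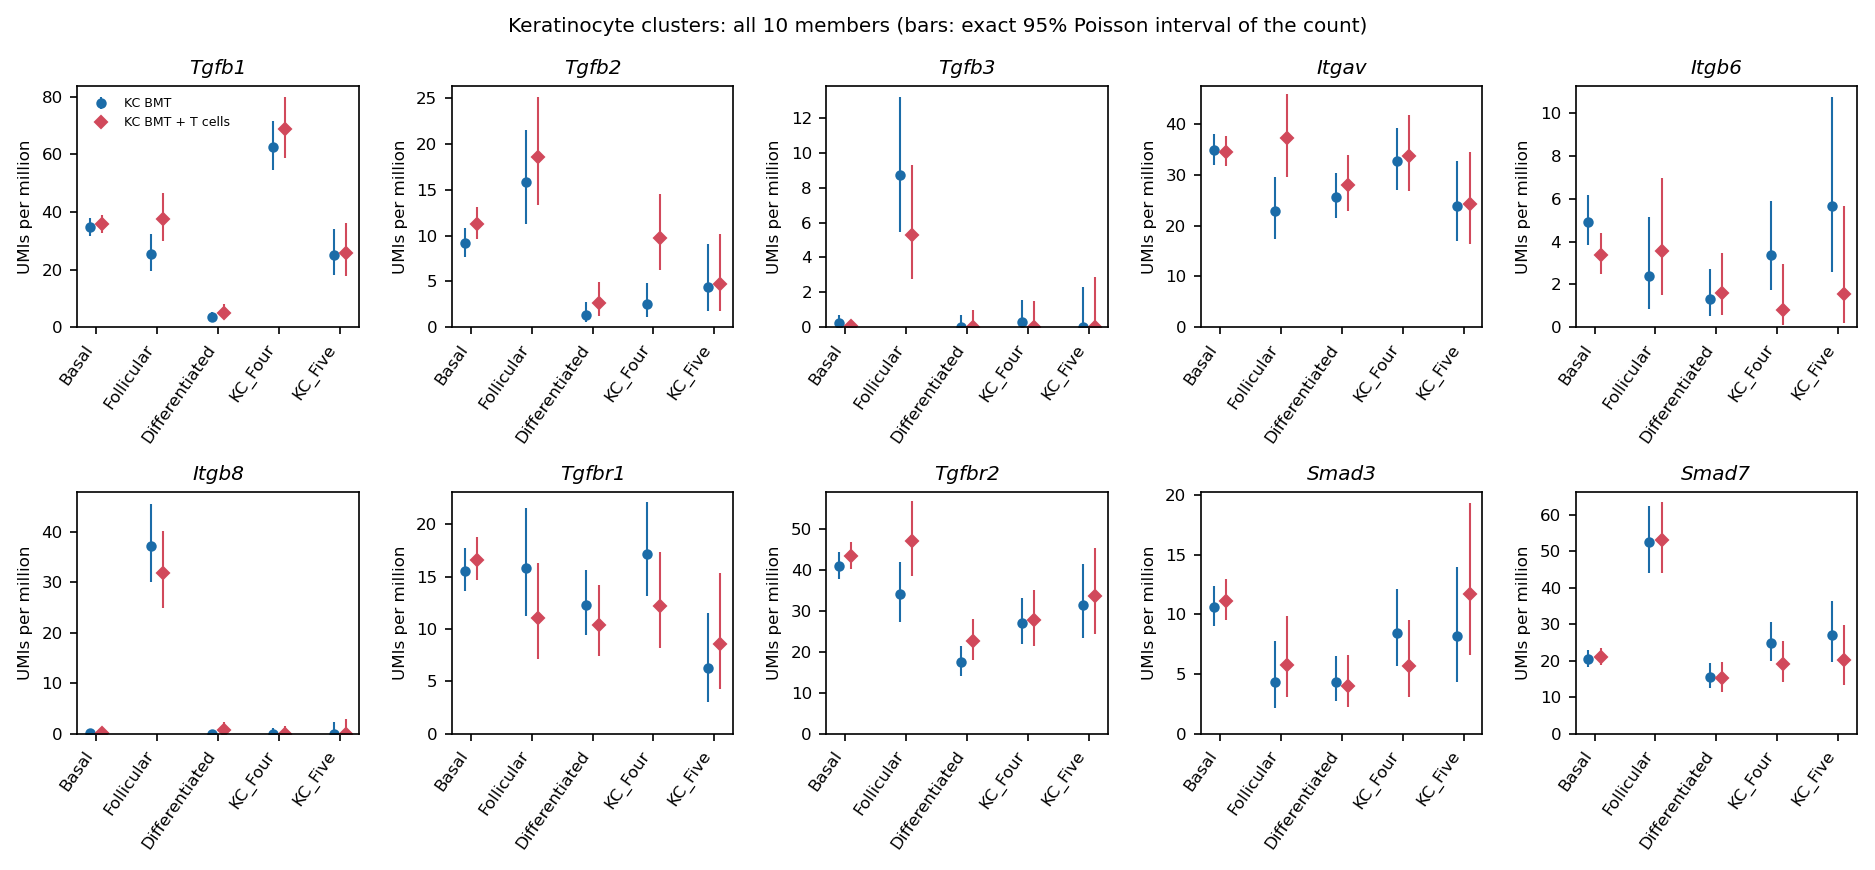
UMIs per 1000000 UMIs (vertical axis) of the 10 members in the 5 keratinocyte clusters (horizontal axis), with 1 point per library and exact 95% Poisson intervals as bars. Itgb8 stands at 37.2 and 31.8 CPM in follicular cells and near 0 in the other clusters, while Tgfb1 is lowest in differentiated cells.

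Itgb8, the β8 subunit, was the member with the sharpest restriction. Follicular cells held 94 UMIs in KC BMT and 72 in KC BMT + T cells, or 0.399 and 0.400 UMIs per 10000. All other 4889 keratinocytes together held 6, of which 3 were in basal and 3 in differentiated cells, while KC_Four and KC_Five held 0. A UMI was found in 125 of 537 follicular cells (23.3%) and in 6 of the other keratinocytes (0.123%), at median depths of 8001 and 8977 UMIs per cell. Follicular and basal levels did not overlap. The follicular level in CPM was 277 times that of all other keratinocytes (counting interval 125 to 766).

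Itgb8 had no value in the filtered test. Without the filter it was higher in follicular than basal cells by 2.31 (SE 0.08) on the log2 scale, in 2 of 2 libraries (limma adjusted p = 1.2e-04), where 2.82% of 21628 genes were called. The size and the SE on this scale depend on the pseudocount, as basal cells held 3 UMIs. In the 448 follicular cells without fibroblast or melanocyte UMIs the difference was 2.36 and 145 of 166 UMIs remained. Among them, cells with a Krt79 UMI held 38.9 CPM of Itgb8 (30.1 to 49.4) and 27.5% of them had at least 1. Cells with neither a Krt79 UMI nor one of those markers held 33.8 CPM (26.7 to 42.2), an overlapping interval. After thinning to 2500 UMIs per cell, 9.03% of follicular cells would hold an Itgb8 UMI.

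The genes whose levels were most like those of Itgb8 over the 10 library and cluster means were Foxc1, Cytl1 and Wif1, each at a Pearson r of 0.999. With Itgb8 high in only the 2 follicular means, such a value says little beyond a shared rise in that cluster.

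Itgb6, the β6 subunit, was low in every keratinocyte cluster, with 176 UMIs in all. Basal cells held 0.0518 and 0.0335 UMIs per 10000, follicular cells 0.0260 and 0.0233, and differentiated cells 0.0127 and 0.0195. Ranges of KC_Four and KC_Five overlapped those of the follicular cells. The follicular minus basal difference without the filter was -0.19 (SE 0.12, limma adjusted p = 0.41). Itgav, the αv subunit that pairs with both, was spread evenly, between 0.218 and 0.431 UMIs per 10000 in all 10 means. Its follicular level was 0.244 in KC BMT and 0.431 in KC BMT + T cells, on either side of the basal levels of 0.362 and 0.381. No call was made for Itgav in either keratinocyte comparison (differences -0.14 and -0.26, both with SE 0.16).

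The receptors were less different between keratinocyte clusters. Tgfbr2 stood at 0.425 and 0.441 UMIs per 10000 in basal cells and at 0.182 and 0.241 in differentiated cells, without overlap. The difference was -0.78 (SE 0.14, limma adjusted p = 1.8e-04), under the fold threshold, in 2 of 2 libraries. With voom on summed UMIs it was -1.08 and past it. Tgfbr1 ranged from 0.0745 to 0.177 over all 10 means, with basal cells at 0.164 and 0.171.

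Smad7, the inhibitory Smad, was the tested member called in follicular cells. Its follicular levels were 0.575 and 0.588 UMIs per 10000, against 0.218 and 0.211 in basal cells and at most 0.327 in any other mean. The difference was 1.12 (SE 0.15), in 2 of 2 libraries (limma adjusted p = 7.6e-06), where 5.65% of 7650 genes were called and 1 of 5 members. It was 1.03 without cells holding fibroblast or melanocyte UMIs. Within the cluster, those 89 cells held 73.9 CPM of Smad7 (55.8 to 95.9) and the Krt79 cells with neither marker 36.6 (28.1 to 46.8). Both exceeded the basal levels of 20.5 and 21.0 CPM. Smad3, the signal carrier, stood at 0.112 and 0.116 in basal cells and at 0.0442 and 0.0726 in follicular cells, without overlap, and was under the filter. Without it, the difference was -0.44 (SE 0.15, limma adjusted p = 0.15).

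**Figure D2:**
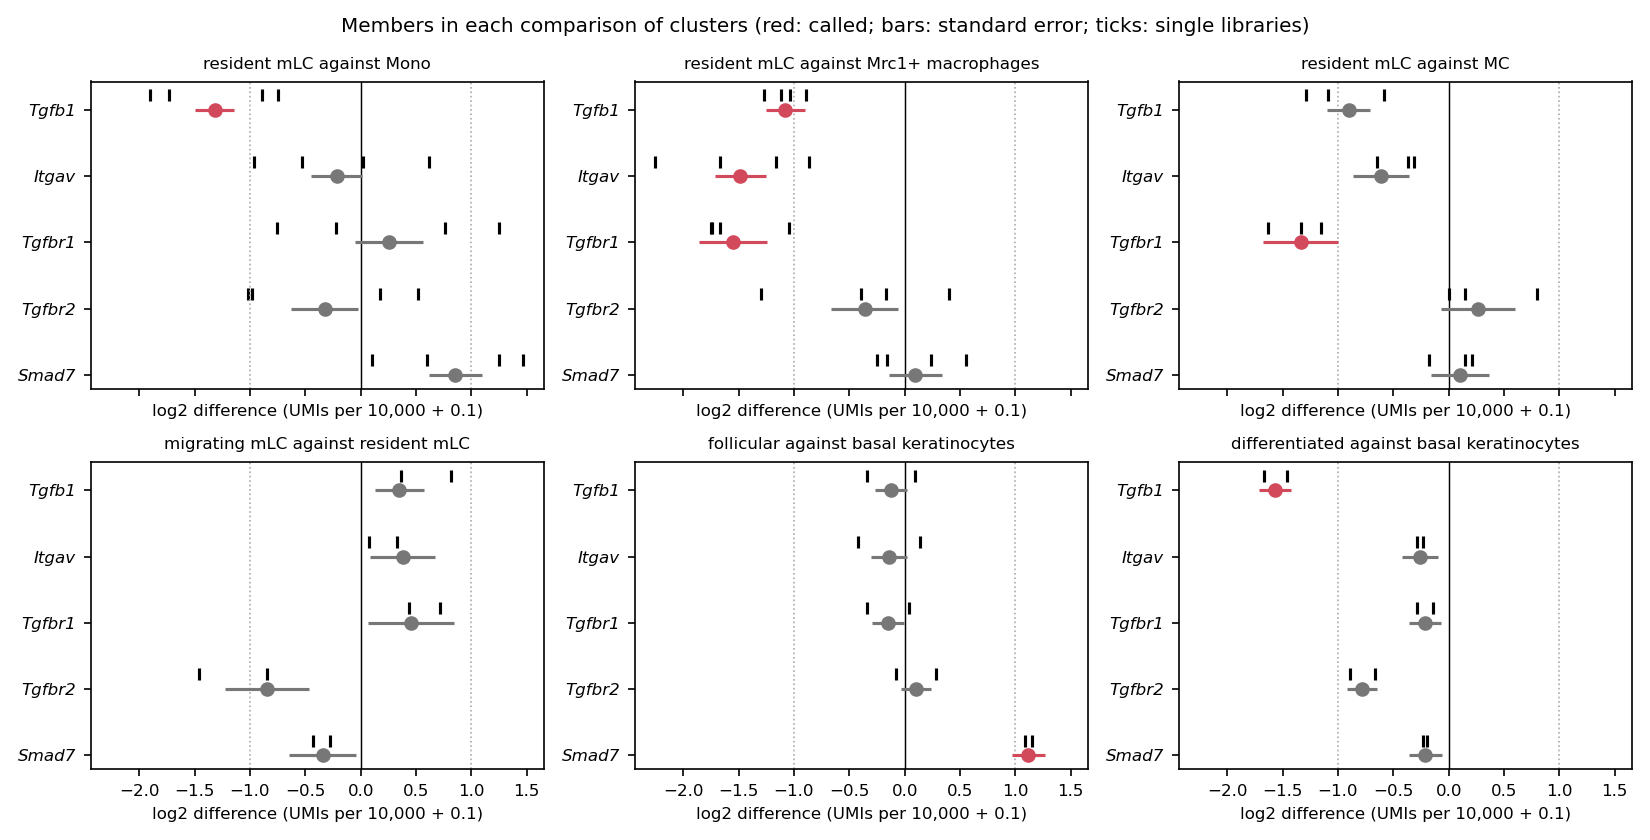
Log2 differences (horizontal axis, UMIs per 10000 + 0.1) of the 5 members past the filter (vertical axis) in 6 comparisons of clusters, with standard errors as bars, single libraries as ticks, and called members in red. In resident mLC against Mrc1+ macrophages 3 of 5 are called, all lower.

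In donor myeloid cells, Tgfb1 was found in every cluster, with 38753 UMIs and a UMI in 80.6% of 11899 cells. It was lowest in resident mLC, at 1.42, 1.81, 2.09 and 1.87 UMIs per 10000 in BMT replicates 1 to 3 and BMT + T cells. Mono held 5.59, 6.25, 3.58 and 3.55 in the same order. The clusters of the LC branch (resident 1.80 ± 0.28, SD, n = 4; cycling 2.26 ± 0.42, n = 3; migrating 2.47 ± 0.15, n = 2) all lay under the remaining clusters, whose means ran from 3.48 to 4.74. Between those remaining clusters, neighbours in the order overlapped. After thinning to 2000 UMIs per cell, 48.1% to 65.9% of Mono and 29.0% to 35.9% of resident mLC would hold a Tgfb1 UMI in the 4 libraries.

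Tgfb1 was lower in resident mLC than in Mono by 1.32 on the log2 scale (SE 0.18, limma adjusted p = 2.0e-06), in 4 of 4 libraries. This was the 1 of 5 tested members called, where 14.8% of 7267 genes were called. Single libraries fell into a pair at -1.90 and -1.73 (BMT replicates 1 and 2) and a pair at -0.75 and -0.89 (BMT replicate 3 and BMT + T cells). Those pairs share a form of library name in the deposited table, and no label says what the form stands for. Against Mrc1+ macrophages, at 3.03, 4.50, 3.97 and 4.18 UMIs per 10000, the difference was -1.08 (SE 0.18, limma adjusted p = 3.4e-05), again in 4 of 4 libraries. Against MC, at 3.63, 3.96 and 2.84 in BMT replicates 1 and 2 and BMT + T cells, it was -0.90 (SE 0.19, limma adjusted p = 0.0017), under the fold threshold.

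The genes most like Tgfb1 over the 27 donor library and cluster means were Ltb4r1, a leukotriene B4 receptor (Pearson r 0.91), Plekho2 (0.90) and Fcgr3, a low-affinity receptor for IgG (0.87). These points share libraries and depth, so the values are a description. Tgfb2 and Tgfb3 were near absent, with 7 and 20 UMIs in all donor cells. Keratinocyte RNA was low in the donor table: the basal keratinocyte markers Krt14, Krt5 and Itga6 summed to at most 2.58 UMIs per 10000 in any donor mean, against 155 to 571 in keratinocyte means.

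Itgav was highest in Hmox1_Mono (0.983 ± 0.382 UMIs per 10000, SD, n = 3) and in Mrc1+ macrophages (0.764 ± 0.158, n = 4), whose ranges overlapped. Mrc1+ macrophages held 0.531, 0.809, 0.881 and 0.833 in BMT replicates 1 to 3 and BMT + T cells, and resident mLC 0.247, 0.307, 0.106 and 0.194, without overlap. Itgav was lower in resident mLC by 1.48 (SE 0.23, limma adjusted p = 2.0e-05), in 4 of 4 libraries. Against Mono the difference was -0.22 (SE 0.23, adjusted p = 0.52), with 2 libraries higher and 2 lower.

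Tgfbr1, the type I receptor, was highest in Mrc1+ macrophages and MC. The macrophages held 4.26, 3.04, 3.67 and 5.05 UMIs per 10000 in BMT replicates 1 to 3 and BMT + T cells, and MC 3.35, 3.28 and 4.65 in the 3 libraries with enough cells. Resident mLC held 1.27, 1.42, 1.03 and 1.44, under all of these. The difference from Mrc1+ macrophages was -1.55 (SE 0.31, limma adjusted p = 4.5e-04), in 4 of 4 libraries. That from MC was -1.34 (SE 0.34, limma adjusted p = 0.0084), in 3 of 3. Together with Tgfb1 and Itgav, 3 of 5 tested members were called against Mrc1+ macrophages, where 13.9% of genes were called, and 1 of 5 against MC, where 8.39% were. Without BMT replicate 2, or with at least 50 cells per mean, Tgfbr1 against MC had an adjusted p of 0.076 or 0.056.

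Between resident mLC and Mono, Tgfbr1 did not move one way. Mono held 2.21 and 1.68 in BMT replicates 1 and 2, but 0.565 and 0.544 in BMT replicate 3 and BMT + T cells. The single-library differences were -0.75 and -0.23 in the first pair and 0.76 and 1.25 in the second. The fitted difference was 0.26 (SE 0.31, adjusted p = 0.56). In the same Mono cells, Smad7 also split by pair, at 0.988 and 1.05 against 0.218 and 0.307. Tgfbr2 split the other way, at 0.300 and 0.377 against 0.718 and 0.745. The monocyte markers Plac8, Lyz2 and Ly6c2 summed to 153 and 86.8 UMIs per 10000 in the first pair and to 138 and 184 in the second, and 3 MC markers to 16.7 and 13.5 against 9.48 and 8.04. Other markers also split by pair. Pf4, the listed 1 of 2 platelet markers, stood at 0.210 and 1.88 in the first pair and at 18.7 and 14.3 in the second, Hmox1 at 1.12 and 1.13 against 2.88 and 2.16, and S100a8 with S100a9 summed to 3.46 and 2.89 against 0.296 and 0.565. The part of cluster composition in this split was not tested.

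Tgfbr2, the ligand-binding receptor, was within 0.294 to 0.925 UMIs per 10000 in every mean of resident mLC, cycling mLC, MC, ISG_Mono, Mono and Mrc1+ macrophages. No difference was called for it. Its lowest cluster mean was that of migrating mLC, at 0.151 and 0.148 in the 2 libraries with at least 20 such cells, against 0.352 and 0.583 in resident mLC of the same libraries. Hmox1_Mono, the next in order, overlapped with it, at 0.0336 to 0.387 over 3 libraries, and S100a_Mono held 0.286 in 1 library. The difference from resident mLC was -0.85 (SE 0.38, limma adjusted p = 0.12) over all clusters, in 2 of 2 libraries. With only the 2 clusters in the fit it was -1.16 (adjusted p = 1.9e-05), and with voom on summed UMIs -1.58 (adjusted p = 0.0031). None of 5 members was thus called for migrating mLC, where 12.0% of genes were called and 1 member had an unadjusted p under 0.05. The genes most like Tgfbr2 over the 27 means were Clcc1 (Pearson r 0.83), Phka2 (0.83) and Map3k5 (0.81).

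**Figure D3:**
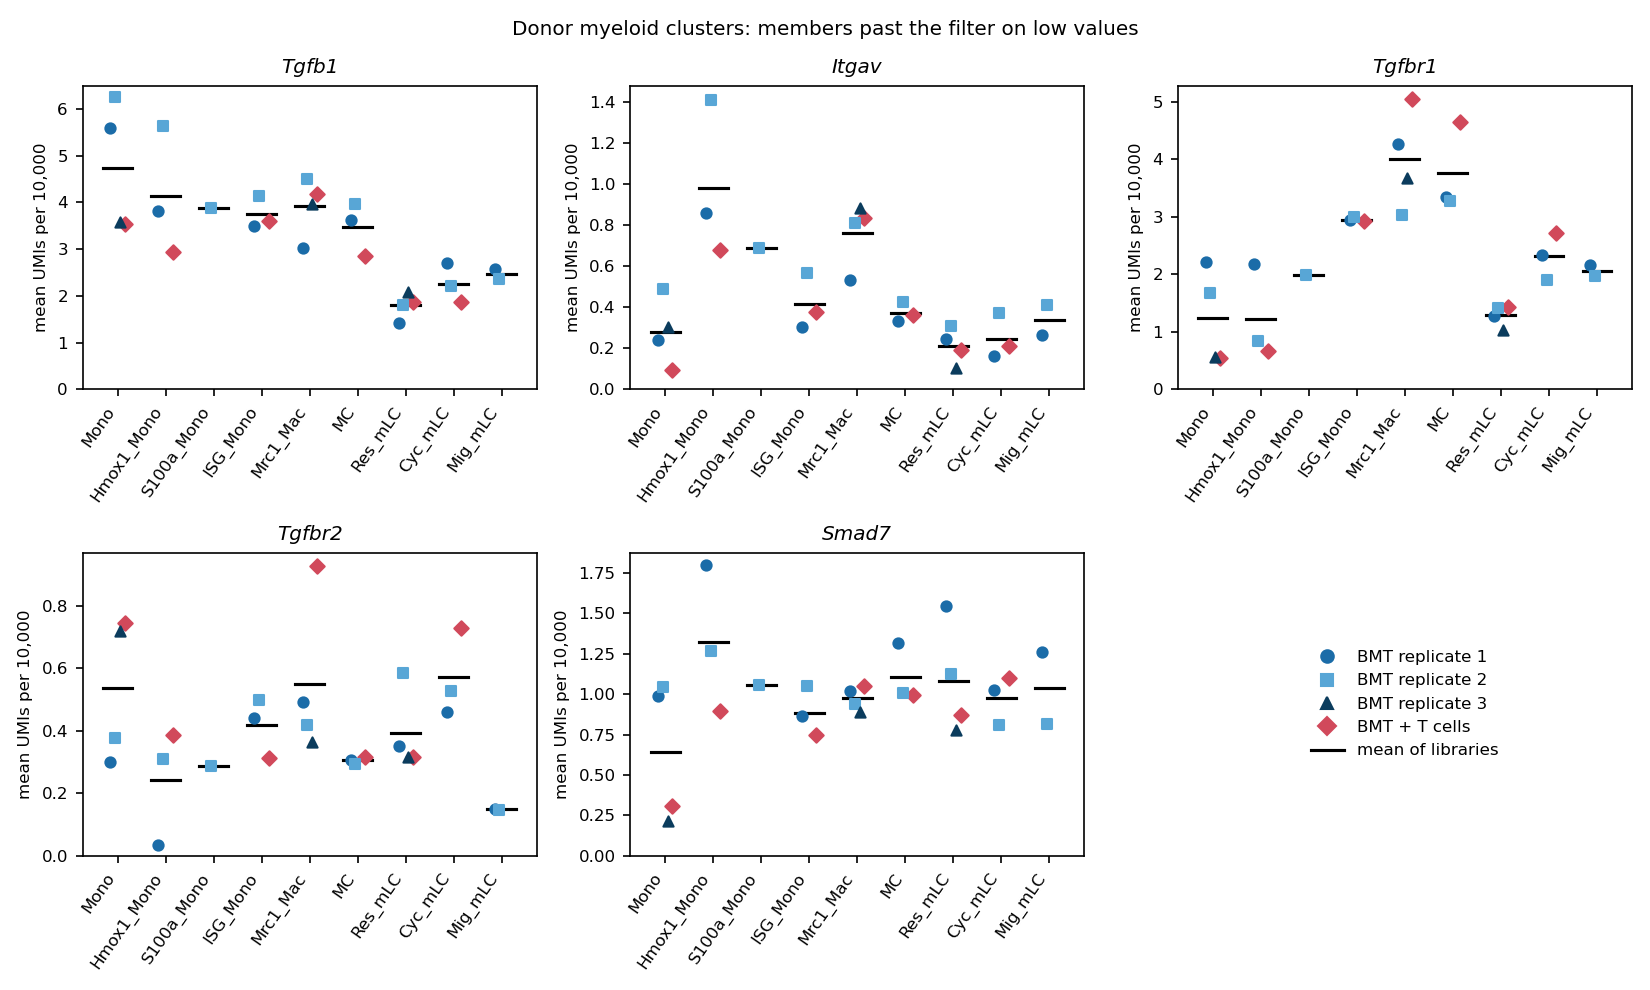
Mean UMIs per 10000 (vertical axis) of the 5 members past the filter in the 9 donor clusters (horizontal axis), with 1 point per library of at least 20 cells and the mean as a line. Tgfb1 is lowest in the LC branch, Tgfbr1 peaks in Mrc1_Mac and MC, and Mono splits into 2 pairs of libraries for Tgfbr1, Tgfbr2 and Smad7.

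Smad7 in resident mLC stood at 1.55, 1.13, 0.782 and 0.869 UMIs per 10000, above Mono of the same library in 4 of 4. The difference was 0.86 (SE 0.24, limma adjusted p = 0.0076), under the fold threshold, and it ranged from 0.10 to 1.47 over single libraries. Without BMT replicate 2 it was 1.11 and past the threshold. Against Mrc1+ macrophages and MC it was 0.09 and 0.10, each smaller than its SE. The other donor clusters had means of 0.886 to 1.32. Smad3 was scarce, with 395 UMIs in 3.16% of donor cells and means of 0.00694 to 0.180 per cluster. It was under the filter. In a fit without the filter none of its differences between myeloid clusters was called, and the lowest adjusted p was 0.48.

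Integrin β8 had 62 UMIs in the donor table, and 47 of them lay in the 875 migrating mLC. These came from 16 cells. BMT replicate 1 had 6 UMIs in 3 of 91 cells, BMT replicate 2 had 28 in 11 of 766, BMT replicate 3 had 0 in 2 cells, and BMT + T cells had 13 in 2 of 16. All other 11024 donor cells held 15 UMIs in 14 cells. The level was thus 5.81 CPM (4.27 to 7.72) in migrating mLC and 0.146 (0.0818 to 0.241) elsewhere. Without the BMT + T cells library the ratio was 28.9 (15.1 to 58.2), against 39.7 (21.8 to 76.5) with it. Resident mLC held 1 UMI in 1651 cells. Up to 9 UMIs lay in 1 migrating cell of BMT replicate 2. Without the filter, migrating minus resident was 0.47 (SE 0.03, limma adjusted p = 4.0e-09), in 2 of 2 libraries and under the fold threshold. Most other donor means lay at or near 0 UMIs. This SE and p thus follow the pseudocount more than the spread between libraries. Median depth was 8604 UMIs per migrating cell and 8250 per other donor cell.

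The host library gave the same gene in a second place. Host cluster 4, which carried Ccr7 at 2.87 and Nr4a3 at 9.08 UMIs per 10000, held 16 Itgb8 UMIs in 7 of 90 cells, or 26.8 CPM (15.3 to 43.5). Clusters 1 to 3 held 0 in 607 cells, which allows up to 1.11 CPM, and cluster 5 held 1. Krt79 and Krt17, the markers of the follicular keratinocytes, were at 0.0247 and 0.240 UMIs per 10000 in cluster 4, under their levels in cluster 2, which had no Itgb8 UMI. The host comparison has no replicate and no test.

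**Figure D4:**
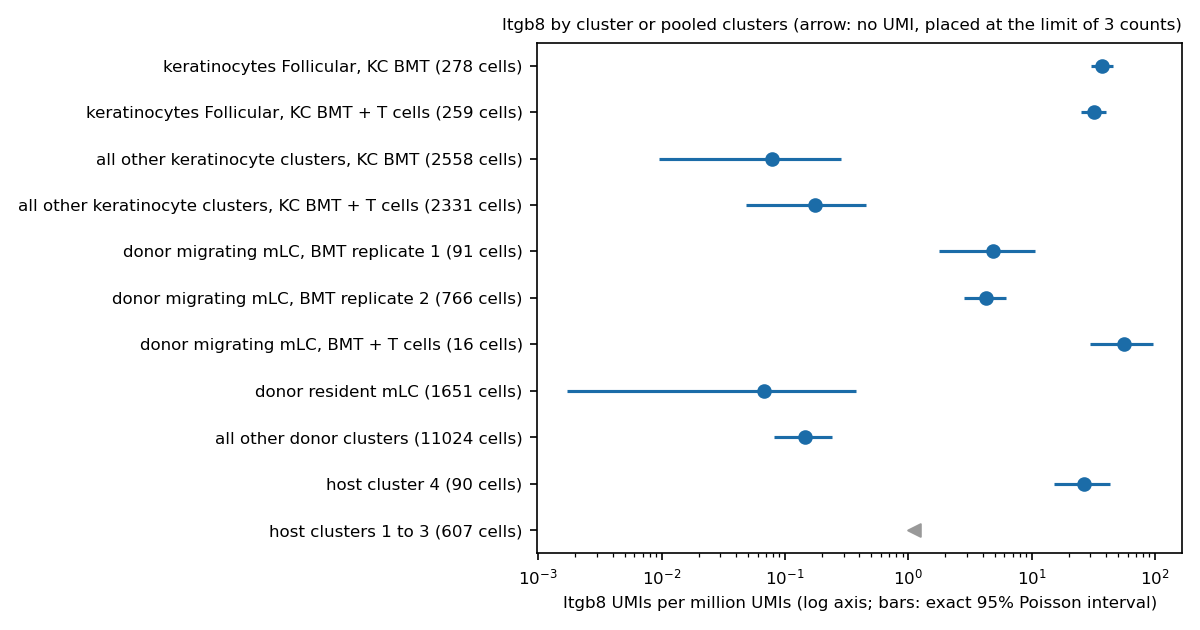
Itgb8 UMIs per 1000000 UMIs (horizontal log axis) by cluster or pooled clusters, in part split by library (vertical axis), with exact 95% Poisson intervals as bars; the arrow marks a count of 0 at the limit of 3 counts. Follicular keratinocytes, donor migrating mLC and host cluster 4 lie above 4 CPM, and the pooled groups with a UMI lie below 0.2. Clusters of 1 library that held 1 to 3 UMIs are drawn only as part of a pooled group, and host cluster 5 is not drawn.

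The other members in host clusters were as follows. Tgfb1 was present in clusters 1 to 4, at 1.37, 1.97, 1.60 and 1.12 UMIs per 10000. Tgfbr1 was highest in cluster 4, at 1.97 (111 UMIs, 91.3 to 134), and stood at 1.21, 0.302 and 0.956 in clusters 1 to 3. Tgfbr2 and Smad7 were highest in cluster 6, the 23 cells with Cd3e, at 2.99 and 2.71 (50 and 41 UMIs). Tgfb2 was found in cluster 5, with 29 of the 30 host UMIs, where Krt14 stood at 205 UMIs per 10000. Itgb6 totalled 22 UMIs.

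A wider list of 65 symbols of the pathway (other receptors and Smads, latency and activation genes, inhibitors, target genes and related ligands) was then counted. Donor cells listed 58 of them and 36 passed the filter. In resident mLC against Mono 5 were higher and 8 lower, against Mrc1+ macrophages 6 and 9, and against MC 4 and 7. These are 36.1%, 41.7% and 30.6% of the list, against 14.8%, 13.9% and 8.39% of all genes tested. The list was chosen with earlier results of these data known, so its share of calls, here and in keratinocytes, is a description only. The list medians were -0.12, -0.24 and -0.01. For migrating against resident mLC 3 were higher and 2 lower, or 13.9% against 12.0% of all genes. Mmp9, a matrix protease able to release TGF-β, was higher in resident mLC than in Mono by 2.86 (SE 0.35, limma adjusted p = 6.6e-07), in 4 of 4 libraries. It then fell by 2.67 (SE 0.45) in migrating cells, in 2 of 2 libraries, a call that was lost without BMT replicate 2 (-2.45).

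The activin receptor Acvr2b was also higher in resident mLC, by 1.47 against Mono, 1.35 against Mrc1+ macrophages and 1.82 against MC. The BMP and TGF-β receptor Acvrl1 fell by 1.44, 1.04 and 1.40. Thbs1, an activator of latent TGF-β, fell by 1.97 against Mono and 2.09 against Mrc1+ macrophages, and Itgb5, another partner of Itgav, fell by 2.49 against the macrophages. The Thbs1 call against Mono was lost without BMT replicate 1 (-1.82) or BMT replicate 2 (-1.96).

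Of 8 tested genes often used as TGF-β targets, 3 were higher and 3 lower in resident mLC than in Mono, 4 and 3 against Mrc1+ macrophages, and 2 and 3 against MC. Their median differences were 0.15, 0.12 and 0.09, beside 0.14, 0.12 and 0.13 over all genes. Zeb1 was higher in resident mLC by 1.80, 1.73 and 1.75 against Mono, Mrc1+ macrophages and MC, and Itgae, the αE integrin, by 1.64 and 1.52 against Mono and Mrc1+ macrophages. Runx3, a transcription factor needed for LC, was higher by 1.58 and 1.37 in the same comparisons. Tgfbi, a secreted matrix protein named for its induction by TGF-β, fell by 2.60, 3.16 and 2.04, and the cell cycle inhibitor Cdkn1a fell by 1.89 against Mono. Axl fell by 1.76 against Mrc1+ macrophages and 2.28 against MC, and was not called against Mono (-0.51). Id2 was higher by 1.10 and 1.04 against Mrc1+ macrophages and MC, and by 0.81, under the fold threshold, against Mono. In migrating cells Cdkn1a was higher than in resident cells by 2.73 and Axl by 1.48, while Runx3 fell by 1.70. Without BMT replicate 1 or BMT replicate 2, which leaves 1 library with enough migrating cells, the calls of Axl (1.42 and 1.63) and Runx3 (-1.59 and -1.86) were lost. Among the inhibitors, Pmepa1 fell by 1.97 against Mrc1+ macrophages and 1.79 against MC, in every library.

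In keratinocytes 64 of the 65 symbols were listed and 37 passed the filter. Follicular against basal cells had 3 higher and 1 lower, and differentiated against basal cells 2 higher and 3 lower. These are 10.8% and 13.5% of the list, against 5.65% and 5.74% of all genes. Without follicular cells holding fibroblast or melanocyte UMIs, 3 of 36 list genes were higher and 2 lower than in basal cells, where 416 of 7616 genes were called. Ccn2, a target that encodes a matrix-associated growth factor, stood at 1.83 ± 0.24 UMIs per 10000 in follicular and at 0.00121 ± 0.000876 in basal cells (SD, n = 2). The difference was 4.25 (SE 0.15, limma adjusted p = 6.0e-14). Basal cells alone lay under the filter, so Ccn2 entered the test through clusters where it is high, the follicular cells among them. Its size, SE and p depend on the pseudocount, and the call is a description only. Itgb5 was higher in follicular cells by 1.20 and in differentiated cells by 1.30. Tgfbi fell by 1.44 in follicular cells. In differentiated cells Thbs1 fell by 1.93, the latency protein gene Ltbp4 by 1.53 and Itgb1, which also pairs with Itgav, by 1.69.

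**Figure D5:**
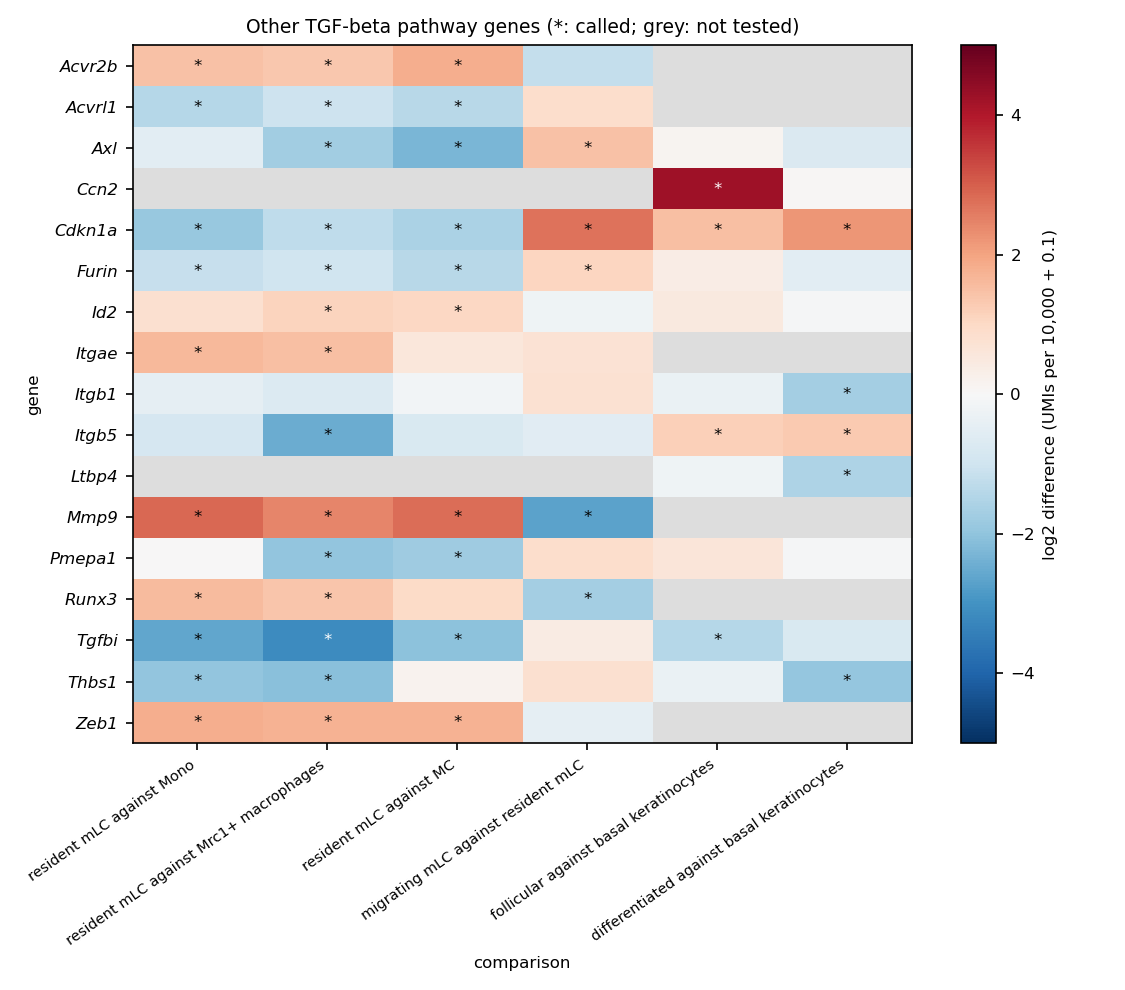
Log2 differences (colour, UMIs per 10000 + 0.1) of the other pathway genes named by rule (rows) in 6 comparisons (columns), with called genes starred and untested ones grey. Mmp9, Zeb1 and Acvr2b are called higher and Tgfbi, Cdkn1a, Acvrl1 and Furin lower in resident mLC in all 3 comparisons with other myeloid cells.

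The last question was whether the members differed between the labels. For donor cells, levels averaged over the 3 clusters with enough cells in all 4 libraries were compared between BMT + T cells (n = 1) and BMT (n = 3). No member of 5 was called and none had an unadjusted p under 0.05, while 0% of 7345 genes were called and 316 had an unadjusted p under 0.05 in limma. The member differences lay between -0.28 (Smad7, SE 0.36) and 0.51 (Tgfbr2, SE 0.27). This fit takes the spread of the single BMT + T cells library to be that of the BMT libraries. With the form of the library name as a term, 188 genes and 0 members were called. Without BMT replicate 3, 219 genes and 0 members were called.

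For keratinocytes, with 1 library per label, values have no replicate and no test. Of 50 ratios of KC BMT + T cells to KC BMT (10 members in 5 clusters), 45 had UMIs in both libraries. The counting interval lay above 1 in 4 of them (Tgfb1, Itgav and Tgfbr2 in follicular cells and Tgfb2 in KC_Four) and below 1 in 1 (Itgb6 in basal cells). The share of all genes with such intervals was not counted, so these counts are not a result about the members. In follicular cells, Itgb8 stood at 37.2 CPM (30.0 to 45.5) in KC BMT and at 31.8 (24.9 to 40.1) in KC BMT + T cells, with overlapping intervals. Itgav stood at 22.9 (17.4 to 29.6) and 37.1 (29.6 to 46.0), and Tgfb1 at 25.3 (19.5 to 32.3) and 37.6 (30.0 to 46.5), ratios of 1.62 (1.15 to 2.30) and 1.49 (1.06 to 2.09). In basal cells the 2 libraries lay close for Tgfb1, at 34.7 and 35.7 CPM, and for Tgfbr2, at 40.9 and 43.3.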

How the data were processed

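Single-cell RNA libraries of sorted mouse epidermal cells were quantified by the authors. The submitters' processing notes name kallisto, bustools, Seurat and GRCm38. The deposited values are the natural log of 1 plus UMIs per 10000, per gene and cell. The authors' cluster names and the percent of mitochondrial UMIs of each cell were used as deposited. According to the study's methods doublets were removed with DoubletFinder; this was not rechecked. Listed donor genes make up 91.3% of the UMIs of the median cell, the rest falling on genes not listed. Log values were turned back to UMIs per 10000. The UMI total of each cell was inferred by taking its smallest nonzero value as 1 UMI. With these totals every deposited value gave a whole UMI count, within a tolerance of 0.001. Depths, CPM and intervals on counts rest on the inferred totals.

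Levels are means over the cells of 1 library and cluster, where it holds 20 cells or more. All genes reaching 0.1 UMIs per 10000 on average entered limma 3.58.1 (R 4.3.3, statmod 1.5.0; trended and robust variance) on log2(UMIs per 10000 + 0.1), with terms for library and cluster and all clusters in the fit. A call required a Benjamini-Hochberg adjusted p under 0.05 over all genes tested and a log2 difference over 1. A permutation test over at most 4 libraries cannot pass that threshold, so none is given. For the labels, the UMIs per 10000 of 3 clusters were averaged per library before the log2 was taken, and 2 residual degrees of freedom remained. Counts carry exact 95% Poisson intervals, ratios of counts conditional exact ones, and a count of 0 is given the limit of 3 counts. For shares of cells, each cell was thinned to 2000 (donor) or 2500 (keratinocyte) UMIs by its expected share, and shallower cells were left out. Tables were handled with pandas 2.3.3 and NumPy 2.4.6 under Python 3.11.15, intervals computed with SciPy 1.17.1, and plots drawn with matplotlib 3.10.9.

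Members and gene lists were chosen with earlier results of these data known. Other genes of the pathway were named by rule: per comparison, up to 4 called genes in each direction with the largest difference. The 3 genes most like a member were those with the highest Pearson r over library and cluster means. On simulated data with 200 changed genes, recovery was an adjusted p under 0.05 in the right direction, without the fold threshold. Over 6 comparisons, 93.9% to 98.0% of genes changed by log2 2 and 21.6% to 59.6% of those changed by log2 1 were recovered. The share that would also pass the fold threshold was not counted. Alternatives were other pseudocounts, filters, fold thresholds and cell minimums, means of the deposited log values, fits of only the 2 clusters, limma voom on summed UMIs, a term for the form of the library name, and leaving out each library. Leaving out follicular cells with fibroblast or melanocyte UMIs was added after seeing the data.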

Additional observations from a re-analysis of the deposited data

Results flagged for a closer look

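In resident mLC, Tgfbr2 of BMT replicate 2 stood at 0.583 UMIs per 10000, apart from the other 3 libraries at 0.315 to 0.352. It was 1 of 18 groups of 4 libraries that met the limit for an outlying value, and chance flags about 1 in 20.

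Single libraries of unlike label moved in opposite directions in 5 cases, none of which was tested. For Smad7 in resident mLC against MC, the log2 difference was -0.18 in BMT + T cells, 0.215 in BMT replicate 1 and 0.152 in BMT replicate 2. In follicular against basal keratinocytes the difference was -0.34 in KC BMT and 0.094 in KC BMT + T cells for Tgfb1, -0.42 and 0.14 for Itgav, 0.039 and -0.34 for Tgfbr1, and -0.078 and 0.29 for Tgfbr2. With 1 library of a label in each case, these values have no replicate.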

How the results depend on the processing

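The number of members called changed with the settings as follows. With a fold threshold of log2 2, or with the mean of the deposited log values, all 6 comparisons of clusters had 0 called members. Few genes were called at all in these fits. With that fold threshold they were 152 to 295 of 7267 in donor cells and 120 and 81 of 7650 in keratinocytes. With mean log values they were 86 to 154 and 47 and 64. With no fold threshold, resident mLC against Mono, resident mLC against MC, and differentiated against basal keratinocytes had 2 in place of 1. In that order, 2375 and 1140 of 7267 genes and 2315 of 7650 were called there. A pseudocount of 0.01 gave 2 in resident mLC against Mono and in differentiated keratinocytes, where 1457 of 7267 and 803 of 7650 genes were called. A pseudocount of 1 gave 1 against Mrc1+ macrophages in place of 3, and 0 against MC, in follicular and in differentiated keratinocytes. In that order, it called 199 and 122 of 7267 genes and 78 and 74 of 7650. At least 50 cells per mean gave 0 against MC, where 587 of 7200 genes were called. Only the 2 clusters in the fit gave 1 for migrating mLC (Tgfbr2) and 2 for follicular keratinocytes. There 1168 of 7287 and 518 of 7865 genes were called. Voom on summed UMIs gave 1 for migrating mLC and 2 for differentiated keratinocytes, where 1458 of 7267 and 931 of 7650 genes were called. No filter gave 2 for follicular keratinocytes, by adding Itgb8, and also 2 without cells holding fibroblast or melanocyte UMIs. In these fits 610 of 21628 and 551 of 21384 genes were called. Leaving out each library in turn gave 1 to 2 against Mono, 3 to 3 against Mrc1+ macrophages, 0 to 2 against MC, and 0 to 0 for migrating mLC and between labels. In those fits 995 to 1164 genes were called against Mono, 887 to 1097 against Mrc1+ macrophages and 420 to 660 against MC, of 7175 to 7349 tested. Without BMT replicate 2 there were 2 members called against Mono and 0 against MC. Without BMT + T cells there were 2 against MC, with Tgfb1 added. Leaving out a keratinocyte library leaves no residual degrees of freedom, so it gave values with no test. Apart from the fold threshold and the scale, the cause of these changes was not tested.

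Signs turned in 14 values, none of them called. Against Mono, leaving out 1 library gave Itgav -0.49 to 0.033 (highest without BMT replicate 3) and Tgfbr1 -0.073 to 0.60 (lowest without BMT + T cells, highest without BMT replicate 1), and voom gave Tgfbr1 -0.28. Smad7 against Mrc1+ macrophages ranged from -0.059 (without BMT replicate 1) to 0.21. In follicular against basal keratinocytes, the single libraries ranged from -0.42 to 0.14 for Itgav, -0.34 to 0.094 for Tgfb1, -0.34 to 0.039 for Tgfbr1 and -0.078 to 0.29 for Tgfbr2. Tgfbr2 there was -0.025 with mean log values, -0.066 with voom and -0.16 without cells holding fibroblast or melanocyte UMIs, with the filter or without. Between labels, Smad7 was 0.21 with the term for the library name and Tgfbr1 was -0.045 with mean log values. No paired analysis was possible because the labels compared share only replicate number 1. The term for the form of the library name is not a replicate number, and comparisons of clusters already hold the library as a block. Depth limits Tgfb2, Tgfb3, Itgb6, Itgb8 and Smad3 most, and the donor libraries of 226 and 719 cells set the error of the smaller clusters.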

Other observations

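In the 23 cells of host cluster 6, where Cd3e stood at 41.0 UMIs per 10000, Smad3 had 8 UMIs in 7 cells, or 0.472 UMIs per 10000, and Tgfbr1 had 1 UMI. In host cluster 5, the 43 cells with Krt14 at 205 UMIs per 10000, Tgfb3 had 8 UMIs and Itgav 99. In donor Mrc1+ macrophages, Tgfb3 had 7 UMIs.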
